A study of Homo sapiens and Mus musculus with 29 samples.

Results

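RNA-seq levels of 53 genes of motile cilia and their axoneme were examined in tumors and metastases grown in mice from HPAF-II, a human pancreatic ductal adenocarcinoma cell line of the classical subtype. The 53 genes are listed by symbol among 58719 gene identifiers in the human table. They were selected on earlier results of these data, because several members were higher in tumors labeled HNF4G-KO than in controls and lower again in tumors that also carried FOXA1. Values of those 2 contrasts are therefore given below as a description, without a test. Of the 53 members, 34 had a mean of 0.3 RPKM (read counts scaled to exon length and to the size of the library) or more over the 21 HPAF-II libraries and are reported in full. Just inside this limit were CFAP52 (mean 0.312 RPKM), CCDC170 (0.339 RPKM) and DNAI1 (0.344 RPKM), and just outside it were RSPH9 (0.278 RPKM), DNAH3 (0.255 RPKM) and DNAH6 (0.246 RPKM).

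Cells were injected into the tail of the pancreas of NSG mice, an immunodeficient strain that keeps its own stroma and vessels. Control cells carried Cas9 with an empty vector (labeled Cas-9-EV; 3 tumors from 3 mice). FOXA1-OE cells overexpressed FOXA1 (labeled Cas-9-FOXA1; 3 tumors, 3 mice). HNF4G-KO cells were a pool of 3 clones with frameshift mutations made by CRISPR, with the empty vector (labeled HNF4G KO-EV). The paper terms these mutations heterozygotic and the pool HNF4G-/-. HNF4G-KO cells gave 4 tumors from 4 mice and 2 peritoneal metastases, both from mice whose tumor was also sequenced. HNF4G-KO + FOXA1-OE cells combined the knockout with FOXA1, as titles and treatment labels say (5 tumors from 4 mice, of which tumors 2 and 3 shared a mouse, and 4 metastases from 3 mice). The last metastases came from the spleen (1), from peritoneal deposits in fat (2 and 3) and from the peritoneum (4), and 1 and 2 were from the mouse of tumor 1. The free-text descriptions of 8 of these 9 libraries number the factor upward from FOXA1, which was taken as a fill error. Libraries of the same mouse and group were averaged on the log2 scale before any mean or test, so n counts mice. The labels do not give the age of the mice.

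Motile cilia are built on an axoneme in which outer microtubule doublets surround a central pair. Dynein arms on the doublets drive sliding, and radial spokes, the nexin-dynein regulatory complex and the central apparatus coordinate the beat. FOXJ1 and the RFX factors switch the genes of this machinery on in cells such as those of the airway, oviduct and ependyma, whereas normal pancreatic duct cells carry a primary cilium. MCIDAS and CCNO belong to the program that multiplies centrioles in multiciliated cells.

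The sequenced depth was between 33.1 M and 69.6 M reads per library (median 54.5 M), as worked out from the steps between RPKM values, or between 16.6 M and 34.8 M if each step of 2 reads was 1 read pair. HNF4G transcript was not lower in the libraries labeled HNF4G-KO: it lay at 5.72 to 8.42 RPKM in those tumors, against 2.48 to 3.47 RPKM in controls. The paper identified the frameshifts by Sanger sequencing, and the transcript level does not tell whether HNF4G protein was lost. FOXA1 was at 0.519 to 0.932 RPKM in control tumors and 1.26 to 1.87 RPKM in tumors labeled HNF4G-KO. It reached 4.65 to 23.1 RPKM in every HNF4G-KO + FOXA1-OE tumor. Libraries that went against their FOXA1-OE label were FOXA1-OE tumor 3 (0.763 RPKM) and HNF4G-KO + FOXA1-OE metastases 1, 3 and 4 (0.535, 1.30 and 1.55 RPKM). FOXA1-OE tumor 3 also had the lowest HNF4G of all libraries (0.495 RPKM). All 10 ductal epithelial markers, EPCAM among them at 195 to 549 RPKM, were above 1 RPKM in all 21 libraries.

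Most members were transcribed at a low level, and the machinery was incomplete at the transcript level. Levels per length were above 1 RPKM on average for 25 of the 34 reported members. FOXJ1 stood far above the rest with a mean of 39.6 RPKM, followed by RSPH1 (7.53 RPKM), CCNO (6.72 RPKM), PIFO (5.30 RPKM), CFAP45 (5.01 RPKM) and RSPH3 (4.50 RPKM). By role, all 5 regulators, 3 of 4 radial spoke genes, 7 of 13 dynein arm genes, 3 of 4 docking and nexin genes, 4 of 10 central apparatus genes, 4 of 6 genes for proteins inside the doublets, 2 of 4 tether and spoke base genes and 6 of 7 other members passed 0.3 RPKM. Below 0.1 RPKM in all 21 libraries were 8 members. They include DNAH9 (highest value 0.00756 RPKM), a heavy chain, and DNAI2 (0.0247 RPKM), an intermediate chain, both of the outer dynein arm. SPAG6 (0.0283 RPKM) and HYDIN (0.00266 RPKM) of the central apparatus were also among them, and CFAP126, a protein inside the doublets, was at 0 in all 21 libraries. Reads of HYDIN may be divided with its near-identical copy HYDIN2, so its value is uncertain.

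Promoter sequence was looked at because FOXJ1 and the RFX factors are known to bind forkhead and X-box motifs. RefSeq promoters (GRCh38.p14, 250 bases before to 50 after the start site) were at hand for 43 of the 53 members, and none for FOXJ1 or RFX2. The forkhead motif TGTTTAC, searched on both strands, was in 6 of these 43 (14%) and in 4.19% of 27305 promoters of all genes. The X-box core motif GTTGCCAT, which is only a part of the full site, was in 3 of 43 (6.98%) and in 1.63% of all. The HNF4 core motif CAAAGTCC, also only a part of the full site, was in 0 of 43 and in 1.47% of all. These are matches of letters and not shown binding sites. FOXA1 is a forkhead factor as well, and a match of the forkhead motif does not tell FOXJ1 from FOXA1. The windows below show 6 of the 7 reported members with a forkhead or X-box match (the other is CFAP53), 5′ to 3′ along the gene's strand, with the match in capitals on either strand. In the first 4 the capitals mark the forkhead motif, and in the last 2 the X-box core motif.
TEKT1 (chr17:6831680-6831802, minus strand): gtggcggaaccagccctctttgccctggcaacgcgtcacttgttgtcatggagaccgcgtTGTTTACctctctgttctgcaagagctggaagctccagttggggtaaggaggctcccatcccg
CFAP43 (chr10:104232457-104232583, minus strand): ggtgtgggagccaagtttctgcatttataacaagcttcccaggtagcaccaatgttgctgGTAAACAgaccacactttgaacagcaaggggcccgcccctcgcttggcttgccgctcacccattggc
UBXN10 (chr1:20186038-20186145, plus strand): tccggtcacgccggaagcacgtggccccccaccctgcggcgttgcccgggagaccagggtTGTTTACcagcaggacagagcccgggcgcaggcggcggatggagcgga
CCDC170 (chr6:151493961-151494066, plus strand): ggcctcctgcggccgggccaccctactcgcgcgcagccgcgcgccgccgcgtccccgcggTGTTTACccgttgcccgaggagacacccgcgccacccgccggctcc
DNAH1 (chr3:52316154-52316281, plus strand): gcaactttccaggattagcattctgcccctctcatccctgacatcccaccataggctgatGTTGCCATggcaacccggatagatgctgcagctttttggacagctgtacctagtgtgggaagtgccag
DNAH2 (chr17:7717666-7717793, plus strand): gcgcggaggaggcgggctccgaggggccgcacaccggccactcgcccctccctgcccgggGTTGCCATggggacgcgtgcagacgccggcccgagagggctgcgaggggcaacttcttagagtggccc

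In DNAH1 the X-box core motif overlapped its own reverse complement, so that both strands held a match. The forkhead match began 13 bases before the RefSeq start site in TEKT1, and the X-box core motif began 18 bases before it in DNAH2. A gene was counted where any of its listed promoters held the motif, and the match of DNAH9 belonged to a start site deep inside the gene. DNAH9 and CFAP126, which also had the forkhead motif, were at or near 0 RPKM in all libraries.

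The members were chosen by 2 contrasts that address what the HNF4G edit does in the tumor, where its transcript was not lower, and what added FOXA1 does after it, and their values are described first. Of the 34 reported members, 17 were higher in each of the 4 tumors labeled HNF4G-KO than in each of the 3 control tumors, and 1, CCNO, was lower in each. Over all 19900 genes tested, 21.9% were higher and 19.2% lower without overlap. The median log2 difference of the 34 members was 0.52, against 0.00 for all genes. When FOXA1 was added to the knockout, 19 members were lower in each of the 4 mice than in each tumor labeled HNF4G-KO and 0 were higher. Over all genes 10.2% were lower and 2.95% higher without overlap, and the medians were -0.93 for the members and -0.05 for all genes. Of the 17 members higher with the knockout, 16 were among the 19 lower after FOXA1, with DRC3 the exception. The rule used both contrasts, so nothing is read from these shares.

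**Figure D1:**
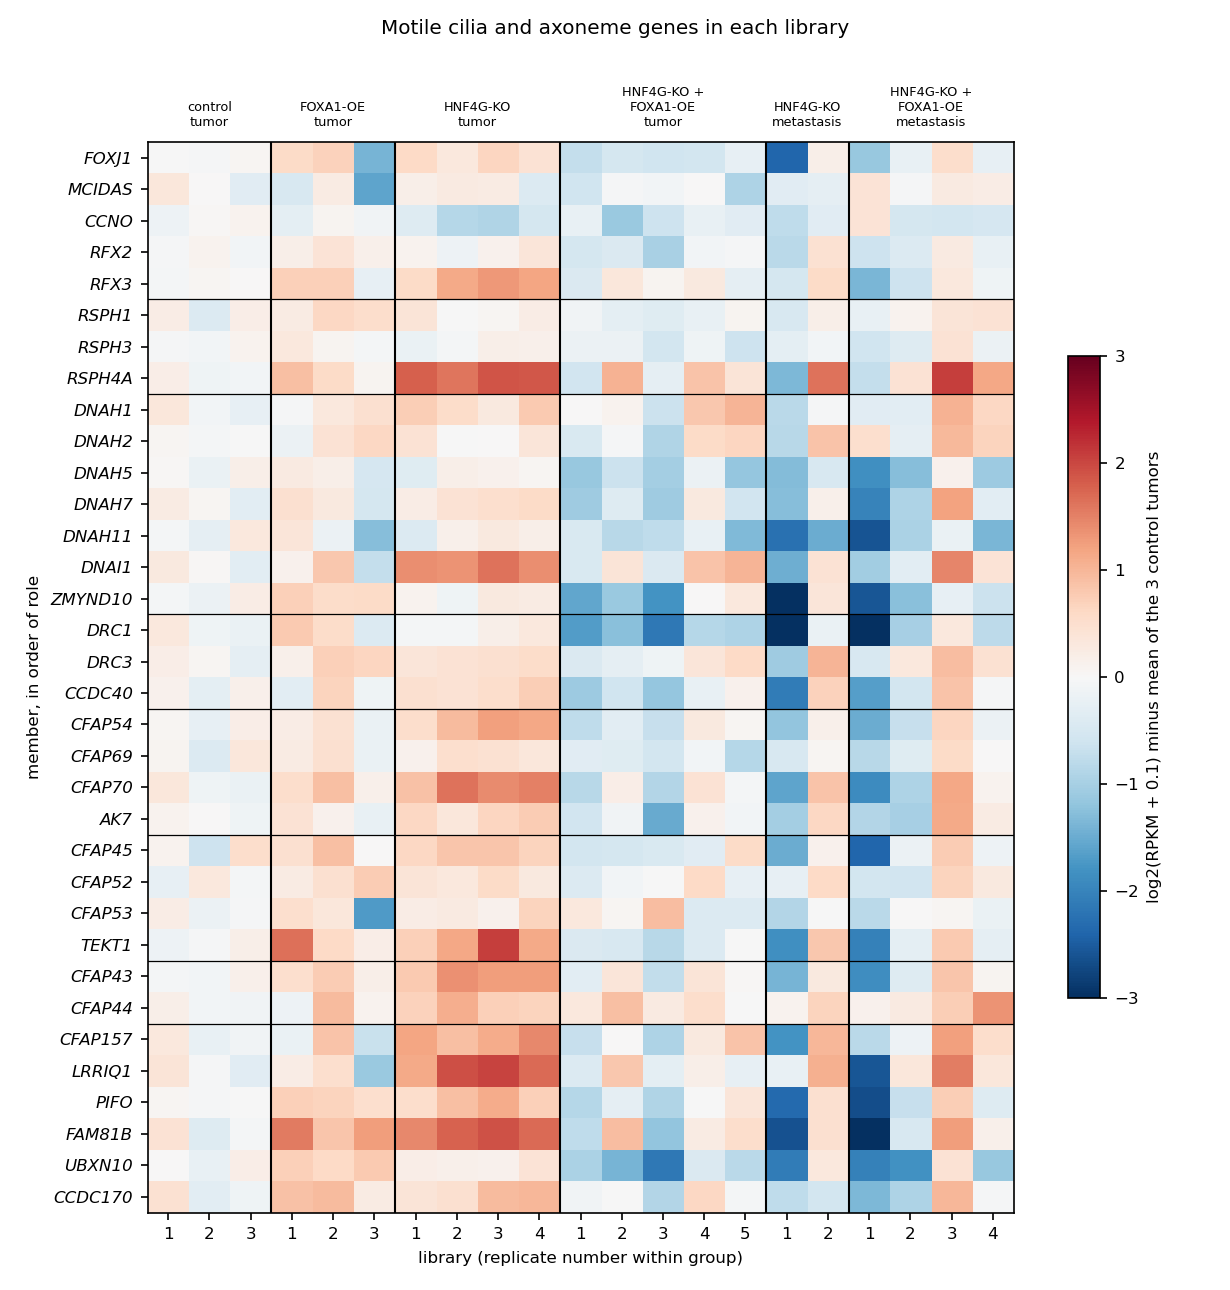
Each row is 1 of the 34 reported members in order of role and each column is 1 library, with the replicate number below and the group above; color gives log2(RPKM + 0.1) minus the mean of the 3 control tumors, red above and blue below. Red rows fill the HNF4G-KO tumor block, HNF4G-KO metastasis 1 and the spleen metastasis (HNF4G-KO + FOXA1-OE metastasis 1) are blue almost throughout, and CCNO is blue in the HNF4G-KO tumors.

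Among the regulators, control tumors had 40.2, 39.5 and 41.8 RPKM of FOXJ1, and tumors labeled HNF4G-KO had 60.9, 50.7, 63.7 and 54.4 RPKM. It was at 24.7, 27.9, 26.5, 27.6 and 33.9 RPKM in the HNF4G-KO + FOXA1-OE tumors. No value of these groups overlapped: the knockout tumors averaged 1.42 times the control mean and the double-modified tumors 70.0% of it. In the FOXA1-OE tumors FOXJ1 was at 59.8, 65.2 and 15.3 RPKM, so that 2 libraries lay at the knockout level and the one without raised FOXA1 lay below every control. RFX3, an X-box binding factor, was at 0.754, 0.831 and 0.801 RPKM in controls and 1.23, 1.86, 2.10 and 1.95 RPKM in knockout tumors, and averaged 0.783 ± 0.214 RPKM (SD, n = 4) with FOXA1 added. RFX2 overlapped between these groups, with means of 2.50, 2.73 and 2.00 RPKM in these 3 groups.

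The 2 members of the centriole program did not follow FOXJ1. CCNO, cyclin O, was at 7.64, 8.72 and 9.02 RPKM in control tumors and at 6.42, 4.59, 4.47 and 5.85 RPKM in tumors labeled HNF4G-KO, which lay below every control. MCIDAS, also called multicilin, had 2.51, 1.97 and 1.54 RPKM in controls against 2.23, 2.39, 2.35 and 1.47 RPKM, and these groups overlapped. Both genes lie next to each other on chromosome 5 (GENCODE 44, GRCh38), with MCIDAS at chr5:55219564-55227315 and CCNO at chr5:55231152-55233608 on the minus strand.

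Of the radial spoke genes, RSPH4A, a spoke head protein, showed the largest difference of the 34 reported members on the log2(RPKM + 0.1) scale. It was at 0.582, 0.441 and 0.464 RPKM in control tumors and 1.96, 1.69, 2.09 and 2.07 RPKM in tumors labeled HNF4G-KO, a 3.94-fold higher mean. With FOXA1 added it was at 0.301, 1.13, 0.388, 0.967 and 0.678 RPKM, below every knockout tumor but spread over both sides of the controls. The more abundant spoke genes RSPH1 and RSPH3 did not follow it: means were 7.13 and 4.79 RPKM in controls and 7.89 and 4.89 RPKM in the knockout tumors, with overlap. Of the 7 reported dynein arm genes only DNAI1, an outer arm intermediate chain, was higher in every knockout tumor, at 0.691, 0.659, 0.826 and 0.690 RPKM against 0.268, 0.205 and 0.140 RPKM. Heavy chains such as DNAH5 (1.58 ± 0.22 RPKM in controls and 1.58 ± 0.26 in knockout tumors) and DNAH2 (1.32 ± 0.05 and 1.55 ± 0.26) overlapped between these groups.

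In the central apparatus, 3 of 4 reported genes were higher without overlap in the knockout tumors and all 4 were lower after FOXA1. CFAP70 was at 1.20, 0.832 and 0.786 RPKM in controls, at 1.78, 3.08, 2.65 and 2.80 RPKM in knockout tumors and at 0.475, 1.07, 0.457, 1.28 and 0.877 RPKM with FOXA1. CFAP54 had means of 0.414, 0.916 and 0.353 RPKM in the same order, and AK7, an adenylate kinase of the axoneme, had 2.05, 3.15 and 1.66 RPKM. CFAP69, the fourth, was higher in knockout tumors by 0.36 on the log2 scale, with overlap.

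Both reported tether genes, CFAP43 and CFAP44, which help tether an inner dynein arm to the doublet, were higher in the knockout tumors without overlap. For CFAP44 the mice with FOXA1 added lay below the knockout tumors only after the libraries of 1 mouse were averaged, since tumor 2 alone was at 2.53 RPKM and the lowest knockout tumor at 2.15 RPKM. CFAP43 went from 0.739, 0.725 and 0.869 RPKM to 1.42, 2.17, 1.98 and 1.99 RPKM, and was at 0.605, 1.03, 0.422, 1.05 and 0.792 RPKM with FOXA1. Its group means with FOXA1 and in controls were the same to 3 digits (0.778 RPKM each). TEKT1, a tektin inside the doublets whose promoter window is shown above, was at 0.283, 0.311 and 0.380 RPKM in controls and 0.590, 0.849, 1.69 and 0.827 RPKM in knockout tumors. CFAP45, another protein inside the doublets, went from a mean of 4.69 to 7.47 RPKM.

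Of the docking and nexin genes, CCDC40, which sets the repeat along the doublet, had means of 1.63, 2.41 and 1.17 RPKM in control, knockout and double-modified tumors. DRC1 of the nexin-dynein regulatory complex behaved otherwise. It was at 6.22, 4.54 and 4.34 RPKM in controls and 4.74, 4.77, 5.67 and 6.21 RPKM in knockout tumors, which overlapped, and fell outside both at 1.48, 2.04, 1.05, 2.70 and 2.55 RPKM with FOXA1. UBXN10, an adaptor for intraflagellar transport, had the same form, with means of 2.10, 2.46 and 1.06 RPKM.

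The remaining members held the next largest differences after RSPH4A. FAM81B was at 2.30, 1.28 and 1.63 RPKM in controls, 4.75, 6.01, 6.65 and 5.75 RPKM in knockout tumors and 0.956, 3.33, 0.688, 2.01 and 2.47 RPKM with FOXA1. LRRIQ1 was at 0.992, 0.719 and 0.563 RPKM, then 1.76, 3.12, 3.34 and 2.62 RPKM, then 0.534, 1.38, 0.586, 0.846 and 0.603 RPKM. Both genes lay in the knockout tumors above every tumor of the other 2 groups. CFAP157, a basal body protein, was at 2.27, 1.54 and 1.67 RPKM in controls and 4.21, 3.46, 4.04 and 5.06 RPKM in knockout tumors. PIFO was at 6.82, 8.82, 10.2 and 7.76 RPKM in knockout tumors, a mean 1.80 times that of controls. Among the 19 members below 0.3 RPKM, 10 were also higher in each knockout tumor than in each control, for example DNAH6 (0.106 and 0.506 RPKM on average) and CFAP46 (0.00966 and 0.171 RPKM), and RSPH9 averaged 0.376 and 0.216 RPKM. Over 25542 genes with a mean above 0 and below 0.3 RPKM, many of them near 0 throughout, 3.63% were higher without overlap, and nothing is read from the difference.

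Host cell markers were set beside these values. The host is mouse and the markers were read at human gene identifiers, so their sums do not measure the amount of host cells. In bulk tumors, fewer cells of a kind and less RNA per cell cannot be told apart. The summed level of 10 stromal markers was 58.9 to 196 RPKM in controls, 51.3 to 73.1 RPKM in knockout tumors and 51.2 to 118 RPKM with FOXA1. The summed level of 9 acinar markers was at most 22.0 RPKM in all libraries but control tumor 2 (828 RPKM). Leaving out that tumor gave 18 members higher without overlap in place of 17, with 24.4% of all genes in place of 21.9%. Such a count cannot fall when a tumor is left out, so the part of that tumor was not tested. The summed level of 5 mesothelial markers moved with the contrast: 19.8 to 28.6 RPKM in controls and 37.6 to 52.98 RPKM in knockout tumors, with 15.3 to 43.4 RPKM after FOXA1 was added. It was made almost wholly of UPK3B, and of the others WT1 reached 1.09 RPKM and LRRN4, ITLN1 and BNC1 at most 0.341 RPKM. Its part in the members' values was not tested.

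Genes of the same biology outside the 53 members were taken from lists written for this work, and the fit across all genes gives their tests. These lists were written with earlier results known, and the tests use the tumors and contrasts that selected the members. They are therefore not independent of that selection, and the p-values describe the differences only. Of 47 other motile cilia genes with a mean of 0.3 RPKM or more, HNF4G-KO tumors had 7 called higher than in controls and 1 called lower (limma, adjusted p under 0.05), against 4.55% of all genes called higher and 4.3% called lower. ZBBX, a B-box zinc finger protein, had the largest difference, from 0.133 ± 0.060 RPKM (SD, n = 3) to 1.40 ± 0.43 (n = 4; log2 difference 2.69, SE 0.35, limma adjusted p = 0.00135). SPATA17 went from 0.420 to 1.15 RPKM (adjusted p = 0.0186) and IQCG, a nexin-dynein regulatory complex protein, from 1.71 to 3.35 RPKM (adjusted p = 0.00918). CFAP298 was the one called lower, from 6.99 to 3.81 RPKM (adjusted p = 0.00795). With FOXA1 added, 0 of the 47 were called in either direction, and 24 were at an unadjusted p under 0.05, against 17.2% of all genes. Over all genes 0.00503% were called higher and 0% lower. Their median log2 difference was 0.47 for the first contrast and -0.60 for the second.

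The wider multiciliation program and the genes of primary cilia were counted in the same way. Of 13 multiciliation genes, 0 were called by limma in either contrast. At an unadjusted p under 0.05 stood 2 of them in the first contrast, against 26.8% of all genes, and 0 in the second, against 17.2%. TP73, the factor upstream of FOXJ1 in airway cells, went from 1.12 ± 0.15 RPKM to 1.62 ± 0.23 in knockout tumors (adjusted p = 0.238). Of 51 genes of primary cilia and intraflagellar transport, 2 were called higher in knockout tumors, KIF3B and TMEM67 (1.65 to 3.12 RPKM, adjusted p = 0.0248), and 0 lower. Over all genes 4.55% were called higher and 4.3% lower. In this contrast 19 of the 51 were higher and 7 lower without overlap, with a median log2 difference of 0.27. Of the 47 other motile cilia genes 22 were higher and 2 lower without overlap, against 21.9% and 19.2% of all genes. None of the 51 was called by limma after FOXA1 was added, while 25 were at an unadjusted p under 0.05, against 17.2% of all genes. Without overlap 24 of the 51 were lower, as were 18 of the 47 other motile cilia genes and 10.2% of all genes.

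The question whether FOXA1 alone changes the members was tested between FOXA1-OE and control tumors, a contrast that shares its control tumors with the selection of the members, so that it is not independent of it. FAM81B was at 5.20, 3.09 and 4.17 RPKM with FOXA1-OE, above every control, a log2 difference of 1.22 (SE 0.32, limma adjusted p = 0.825). PIFO was at 7.72, 7.45 and 6.66 RPKM against 4.89, 4.54 and 4.602 RPKM (adjusted p = 0.825). UBXN10 was at 3.50, 3.21 and 3.64 RPKM against 2.11, 1.79 and 2.41 RPKM (adjusted p = 0.825). These 3 genes separated the groups, yet no member passed the test across genes: 0 of 34 were called, as were 0 of all genes (0%). At an unadjusted p under 0.05 stood 4 members of 34 and 5.02% of all genes. Of the 34 members 8 were higher without overlap, against 5.57% of all genes, and 0 were lower. The members' median log2 difference was 0.27, with 26 of 34 above 0, and that of all genes -0.05. Without FOXA1-OE tumor 3, the library with unraised FOXA1, 18 members and 13.3% of all genes were higher without overlap, and 32 of 34 members were above 0. Without FOXA1-OE tumor 1 these values were 11, 9.74% and 25, and without FOXA1-OE tumor 2 they were 8, 13.1% and 22. Counts without overlap cannot fall when a mouse is left out, and 0 members were called in each of these runs. With 3 mice in each group, an exact permutation test of a single gene cannot go below p = 0.10.

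Tumors with both changes were then compared with tumors carrying FOXA1-OE alone. The members were selected partly for low values in the tumors with both changes, so calls lower in them are not independent of that choice, and the p-values below describe the difference only. The 4 members called were all lower in HNF4G-KO + FOXA1-OE tumors. Over all genes 6.75% were called in either direction (1344 genes, of which 634 were higher). UBXN10 had the largest difference, 1.06 ± 0.41 RPKM (SD, n = 4) against 3.45 ± 0.22 (n = 3), a log2 difference of -1.69 (SE 0.26, limma adjusted p = 0.00294). DRC1 was at 2.05 ± 0.67 against 6.58 ± 2.58 RPKM (log2 difference -1.60, adjusted p = 0.00700). FAM81B was at 1.74 ± 0.65 against 4.15 ± 1.06 RPKM (adjusted p = 0.0231), and PIFO at 4.07 ± 1.56 against 7.28 ± 0.55 RPKM (adjusted p = 0.0464). In each of the 4 genes the groups did not overlap, and the exact 2-sided permutation test over mice gave p = 0.0571, the smallest this design allows.

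No member was called higher in that comparison, and 12 of 34 were at an unadjusted p under 0.05, as were 22.4% of all genes. Without overlap, 9 members were lower, against 8.3% of all genes: beside the 4 these were ZMYND10, a dynein assembly factor, TEKT1, RSPH1, RFX2 and RSPH3. ZMYND10 was at 2.69 ± 0.19 RPKM with FOXA1-OE and 1.25 ± 0.84 with both (adjusted p = 0.0676). The members' median log2 difference was -0.48 and that of all genes 0.00. Of the 51 genes of primary cilia and intraflagellar transport, 5 were called lower and 13 were lower without overlap (median -0.39). Of the 47 other motile cilia genes, 4 were called lower and 7 were lower without overlap (median -0.51). In both lists 0 were called higher, and of 13 multiciliation genes 0 were called. The lower values were therefore not particular to the members. Fitting the 2 groups alone, which leaves 5 residual degrees of freedom, called 0 members (lowest adjusted p 0.0891, for UBXN10). UBXN10 and DRC1 were called whichever mouse was left out, whereas FAM81B and PIFO lost their call in 4 and 5 of the 7 cases.

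**Figure D2:**
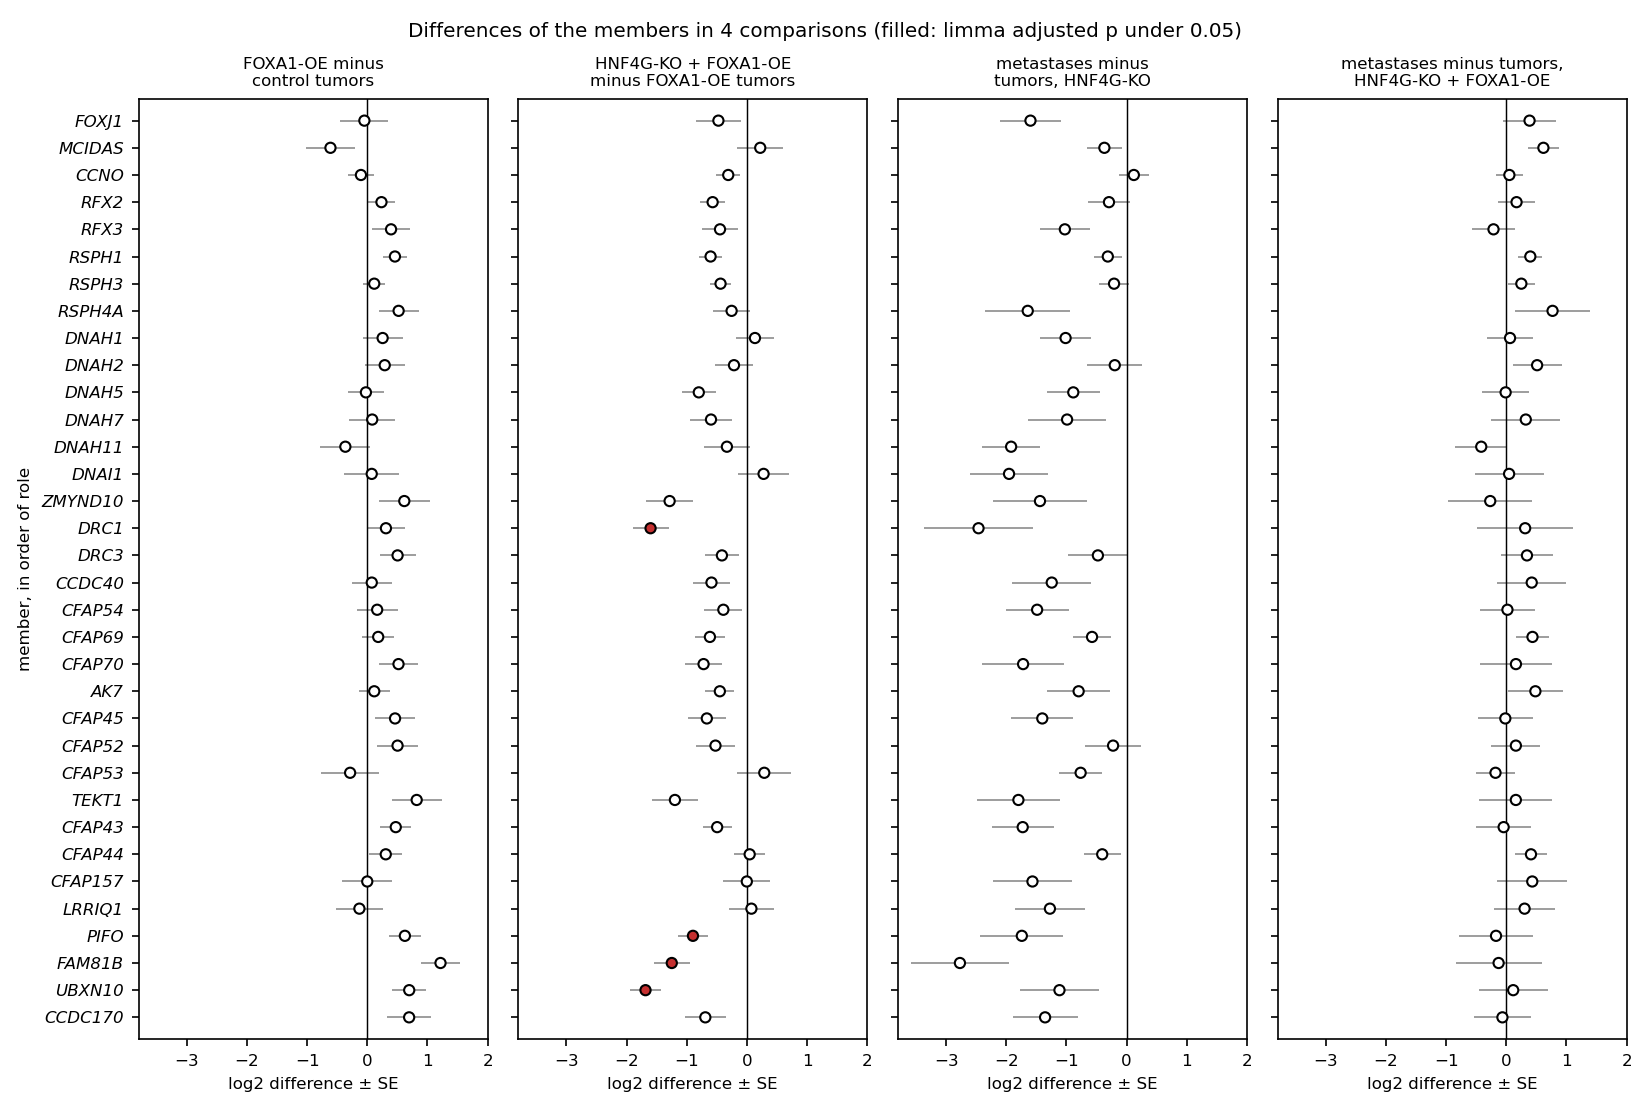
Log2 differences of log2(RPKM + 0.1) with SE (whiskers) for the 34 reported members in 4 comparisons, each of which shares a tumor group with the contrasts that selected the members; red points passed a limma adjusted p under 0.05. Red points are UBXN10, DRC1, FAM81B and PIFO in the second panel only, and 33 of 34 members lie left of 0 in the third panel.

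Among metastases the libraries of each group lay far apart. HNF4G-KO metastasis 1 had 32 of 34 members below every control tumor and a median log2 difference of -1.23 from the control mean, while HNF4G-KO metastasis 2 had 20 members above every control and a median of 0.33. The spleen metastasis (HNF4G-KO + FOXA1-OE metastasis 1) had 29 members below every control (median -1.25), and metastasis 3 of that group, from fat, had 27 above (median 0.73). HNF4G-KO metastasis 1 and the spleen metastasis together held the lowest value of all 21 libraries for 23 of 34 members. The same counts over all genes were not made for single libraries, so these describe the members' values only. DRC1 shows the span, at 0.120 and 4.30 RPKM in the 2 HNF4G-KO metastases and at 0.226, 2.46, 6.22 and 2.85 RPKM in the HNF4G-KO + FOXA1-OE metastases. FOXJ1 measured 7.73 and 45.6 RPKM and at 18.3, 34.9, 58.2 and 33.98 RPKM in the same order. CCNO was at 4.91 RPKM in HNF4G-KO metastasis 1, below every control, but had its highest value, 11.3 RPKM, in the spleen metastasis.

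EPCAM was at 350.5 and 351 RPKM in these 2 low libraries. Their summed stromal markers were 77.0 and 110.3 RPKM and the depths 60.3 M and 61.0 M reads, inside the range of the other libraries in both measures. FOXA1 was at 0.362 and 0.535 RPKM in them, and at 0.602 RPKM in HNF4G-KO metastasis 2, where the members were not low. The part of any of these in the low values was not tested.

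The members were selected for high values in tumors labeled HNF4G-KO, so lower values elsewhere are not independent of that choice. Compared with those tumors, the HNF4G-KO metastases were lower in 33 of 34 members, with a median log2 difference of -1.18 against -0.11 for all genes. None was called by limma (smallest adjusted p 0.191, for DNAH11), and 0.0251% of all genes were. At an unadjusted p under 0.05 stood 17 members and 12.9% of all genes, and 18 members were lower without overlap, against 20% of all genes. The median was -0.31 without metastasis 1 and -1.81 without metastasis 2, and in the latter case FOXJ1 was called (adjusted p = 0.0184). HNF4G-KO + FOXA1-OE metastases against their tumors had a median of 0.16, with 24 of 34 members above 0. In that comparison 0 members were called, against 0.0302% of all genes, and 1 member (MCIDAS) and 8.91% of all genes were at an unadjusted p under 0.05. MCIDAS alone was higher without overlap, as were 3.7% of all genes. With mouse as a block that median was -0.27, and without metastasis 3 it was -0.32, so that its sign rests on single mice.

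The difference between both tumor-to-metastasis contrasts, tested in 1 fit after the data had been seen, holds within it the tumor contrast that selected the members, so its direction is not read. It was called for 0 members and 0% of all genes, while 12 members and 13.9% of all genes were at an unadjusted p under 0.05. Between the metastases themselves, HNF4G-KO + FOXA1-OE against HNF4G-KO, 0 members and 0% of all genes were called, and 0 members and 6.21% of all genes were at an unadjusted p under 0.05. The median difference of 0.39 in favor of HNF4G-KO + FOXA1-OE turned to -0.36 without HNF4G-KO metastasis 1. MCIDAS was the 1 member higher without overlap, against 9.93% of all genes.

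**Figure D3:**
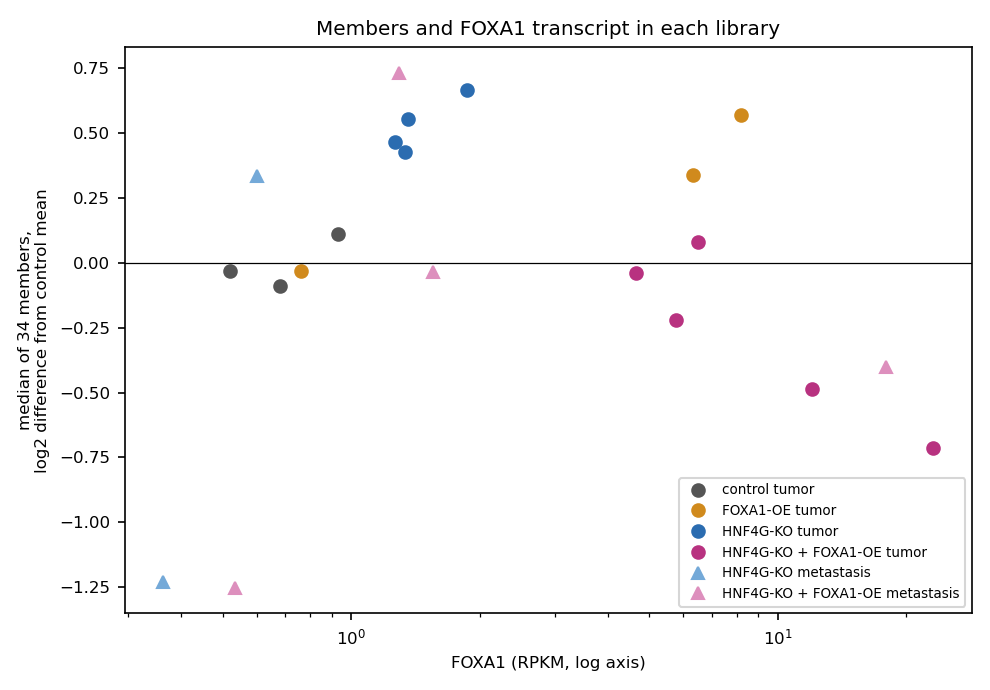
FOXA1 RPKM (log axis) against the median over 34 members of the log2 difference from the control mean, with 1 point per library (circles tumors, triangles metastases). The HNF4G-KO tumors lie at 0.43 to 0.66 with FOXA1 below 2 RPKM, the HNF4G-KO + FOXA1-OE tumors at -0.71 to 0.08, and the FOXA1-OE tumors 1 and 2, with FOXA1 at 6.32 and 8.18 RPKM, at 0.34 and 0.57.

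The members' levels were set beside FOXA1 in each library, as a description. FOXA1-OE tumors 1 and 2, on the control background, had 21 and 28 of 34 members above every control. The HNF4G-KO + FOXA1-OE tumors, at overlapping FOXA1 levels, had 2 to 14 members above and 8 to 27 below every control. Shares of all genes were not worked out for single libraries, so nothing particular to the members is read from these counts. Of the HNF4G-KO + FOXA1-OE tumors, the 2 with the most FOXA1 (11.99 and 23.1 RPKM) had the lowest medians, -0.49 and -0.71. The latter, tumor 3, shared its mouse with tumor 2, at 5.76 RPKM of FOXA1 and a median of -0.22. The lowest medians of all libraries were -1.23 in HNF4G-KO metastasis 1 and -1.25 in the spleen metastasis, with FOXA1 at 0.362 and 0.535 RPKM. A relation to the FOXA1 level was not tested.

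Mouse orthologs were looked up in a separate table of cell lines from the KPC mouse model of pancreatic cancer, with 4 libraries from a primary tumor culture and 4 from a liver metastasis culture. Of the 53 members, 49 had an ortholog symbol in that table and 13 of them a mean of 0.3 RPKM or more. Foxj1 averaged 0.730 RPKM in the primary culture and 0.670 RPKM in the metastatic one. The most abundant were Cfap43 (6.23 and 6.36 RPKM), Cfap69 (4.12 and 5.38 RPKM) and Rfx3 (2.81 and 3.22 RPKM). Each culture is 1 source, so these values carry no test.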

How the data were processed

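RNA-seq of 21 HPAF-II tumor and metastasis libraries from 15 mice, and of 8 KPC cell line libraries, was used. The authors aligned reads with STAR and deposited RPKM values per gene, in 1 table per species. The study's methods name the human build GRCh37 and the submitters' processing notes GRCh38. Whether mouse reads were removed from the xenograft libraries is not given in the sources used here. Of the mouse table, 12 columns that match no sample were left out. RPKM values were whole multiples of a read step for at least 99.7% of values (tolerance 0.02), with a common step of 2 reads, which gave the depth. Intervals from counts are not given.

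The 19900 genes averaging 0.3 RPKM or more were analyzed as log2(RPKM + 0.1) with limma 3.58.1 in R 4.3.3 (with a mean-variance trend), p-values adjusted over all genes by Benjamini and Hochberg's method and a threshold of 0.05. Log2 differences on this scale understate changes of low genes. Tumor contrasts were fitted over the 4 tumor groups, and metastasis contrasts over the 4 HNF4G-KO groups. Single genes were also tested by an exact permutation test over mice. "Without overlap" means that every mouse of 1 group lay above every mouse of the other. The scripts were tested on simulated data. Nothing in the labels says that mice of a group received separately made cells, so p-values measure the spread between mice.

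The 53 members and the gene lists were chosen with earlier results of these data known. The rule for named genes took the regulators, the 8 members with the largest difference between HNF4G-KO and control tumors, the 6 with the highest level and members called in a test; genes named as contrasts to these were chosen after their values were seen. Tumors and metastases of 1 mouse were paired by the animal (correlations of deviations 0.12, 0.13, 0.34 and -0.08), with mouse as a block as an alternative. Alternatives were another pseudocount, other filters, a median shift between libraries, libraries counted separately, fits of 2 groups, blocks and leaving out each mouse.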

Additional observations from a re-analysis of the deposited data

Results flagged for a closer look

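Among 57 groups of 4 or 5 libraries of the 19 members named by rule, 2 had a library far from the others, and chance flags about 1 in 20 such groups. CCNO in HNF4G-KO + FOXA1-OE metastasis 1, the spleen metastasis, was at 11.3 RPKM, with the next of the 4 libraries at 5.96 RPKM. CFAP45 in HNF4G-KO + FOXA1-OE tumor 5 was at 6.65 RPKM, with the next of the 5 libraries at 3.51 RPKM. The causes were not tested.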

How the results depend on the processing

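The 4 members called lower in HNF4G-KO + FOXA1-OE than in FOXA1-OE tumors became 0 when those 2 groups were fitted alone, and 2 to 6 when each mouse was left out. With the replicate number as a block 7 were called, FAM81B no longer among them (adjusted p = 0.0567). Replicate numbers did not pair the tumors (correlations of same-numbered deviations 0.07, 0.34 and -0.43, and 0.10, -0.21 and 0.15 for FOXA1-OE and control tumors), and the block called 0 members in the latter comparison. For HNF4G-KO metastases against tumors, leaving out each tumor or metastasis gave 0 or 1 called members and medians from -1.81 to -0.31. Leaving out all libraries of a mouse with both, chosen after seeing the data, gave 0 and medians of -0.29 and -1.79, and with mouse as a block 0 were called. A pseudocount of 1 moved the members' median to 0.30 for HNF4G-KO against control tumors and to -0.48 for HNF4G-KO + FOXA1-OE against HNF4G-KO tumors, as a larger pseudocount shrinks differences of low genes. It moved the median of HNF4G-KO metastases against tumors to -0.58. Leaving out each mouse gave 18 to 23 members higher without overlap in HNF4G-KO tumors (23.7% to 27.2% of all genes). After FOXA1, 19 to 24 were lower without overlap (11.1% to 15.1% of all genes). A count without overlap cannot fall when a mouse is left out, so these ranges are no check on it. The counts of called members in the FOXA1-OE against control and in both HNF4G-KO + FOXA1-OE metastasis comparisons stayed at 0 under every alternative run. With 2 and 3 mice per metastasis group, differences under the spread between mice were not detectable.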
